A study of Pimephales promelas with 27 samples.

Results

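A set of 150 microarray probes, chosen because their signal in control ovary explants was lower at 9 h of culture than at 6 h and about as low at 12 h, was described across all samples of an experiment on fathead minnow (Pimephales promelas) ovary. Pieces of ovary from female fish were held in culture for 6, 9 or 12 h with DHT (dihydrotestosterone) at 1e-06 M or as controls, and total RNA from each sample was labelled with Cy3 and hybridised to 1 Agilent 1-colour array. There were 5 DHT and 4 control arrays at 6 h, 5 DHT and 5 control arrays at 9 h, and 4 DHT and 4 control arrays at 12 h, 27 in all. Replicate numbers given here count the arrays of a group in the order of deposit and pair no arrays across groups. The labels name no vehicle for the controls and give no fish of origin, so that the spread between samples of a group may in part be technical and p-values measure that spread alone. The 150 probes are a small set among 15208 non-control probes. Of these, 10155 were well above background on all arrays (a call of the scanner software for each spot), 8426 also had a mean within-group SD under 0.6, and 4237 also had control means at 9 and 12 h within 0.3 of each other. Among these 4237 candidates, the members were selected on the control means: they were the 150 with the largest margin by which the 6 h control mean exceeded the higher of the 9 h and 12 h control means. Levels and differences between levels are on a log2 scale throughout, and a level of 0 is the signal at the 75th percentile of that array's non-control probes.

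The fish ovary holds oocytes enclosed by follicle cells, the granulosa and theca cells, which make steroid hormones. DHT is a potent androgen that acts through the androgen receptor, a transcription factor, and that aromatase does not turn into an oestrogen. An explant lets a compound be added to the tissue outside the fish, and its transcript levels can be followed over the hours of culture. The deposited files pair the probes with no gene names, and none of the probe names matched the reference gene table used here, so members are named by probe ID and no function is assigned to them. For the same reason, the ovary label could not be checked against cell type markers.

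Between 73.9% and 89.9% of probes were well above background on an array, with ranges that overlapped among all 6 groups, and 0 non-control spots were saturated. Arrays of 6 and 9 h lay on slides 1 to 4, scanned on 1 day, and arrays of 12 h on slides 5 to 7, scanned on 2 other days. Time cannot therefore be told apart from slide and scan day where 12 h is compared with 6 or 9 h. DHT arrays were not fully separate from the controls that chose the members. They entered the detection and SD limits of the rule, and after removal of group means 12 of the 13 control arrays had a DHT array of the same time that they resembled at r over 0.3, with a highest r per control array of 0.14 to 0.84 across 9867 probes that were not members. Probes on an array share its library and are not independent replicates, and whether such arrays share fish is not stated.

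The members spanned a wide range of signal. Their mean level over the 27 arrays had a median of 0.73 and ran from -5.19 for UF_Ppr_AF_113589 to 5.51 for UF_Ppr_AF_115253. Of the 150, 92 (61.3%) lay above level 0, against 54.4% of the candidates. In the controls, whose means chose the members and which are given as a description only, the median difference was -0.64 for 9 h minus 6 h and -0.60 for 12 h minus 6 h. The margin that ranked them was 1.22 for the first member, UF_Ppr_AF_104430, had a median of 0.56 and exceeded 0.8 in 9 members. The last 2 members inside the limit, UF_Ppr_AF_103193 and UF_Ppr_AF_116503, had margins of 0.480 and 0.479. The first 2 outside, UF_Ppr_AF_104899 and UF_Ppr_AF_106489, had margins of 0.478 and 0.477. The boundary is thus narrow, and the list does not separate from the probes next to it.

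Seen over all arrays, the members stood high at 6 h and lower at 9 and 12 h in both arms. Each member's level was set against its own mean over the 27 arrays, and the median of these deviations was taken on each array. In DHT arrays it was 0.42, 0.28, 0.33, 0.47 and 0.21 at 6 h, then -0.11, -0.07, -0.40, -0.25 and -0.21 at 9 h, then -0.22, -0.12, -0.12 and -0.13 at 12 h. In control arrays it was 0.46, 0.49, 0.45 and 0.39 at 6 h, then -0.19, -0.08, -0.28, -0.08 and -0.35 at 9 h, then -0.18, -0.39, -0.10 and -0.08 at 12 h. Every 6 h array of both arms was above 0 and every 9 and 12 h array below it. In the controls this was largely set by the choice of members, and their values also enter each member's mean over the 27 arrays. The mean over DHT arrays was 0.34 ± 0.10 at 6 h (SD, n = 5), -0.21 ± 0.13 at 9 h (SD, n = 5) and -0.15 ± 0.05 at 12 h (SD, n = 4). The median over all tested probes, taken the same way, stayed between -0.20 and 0.24 on every array. All tested probes gave means of -0.04, -0.08 and 0.08 over the same 3 sets of DHT arrays. Between 120 and 143 members were above their own mean on a DHT array of 6 h, between 24 and 63 on one of 9 h, and between 43 and 54 on one of 12 h. Since this is bulk RNA, fewer cells of a type and less RNA per cell cannot be told apart in any of these differences.

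The first test asked whether the members were also lower at 9 h than at 6 h in the DHT arrays, which had no part in the direction the rule chose. The mean was lower at 9 h for 149 of 150 members. The median difference was -0.53, a level 0.692 times that of 6 h, with quartiles of -0.65 and -0.42 and a range of -1.16 to 0.04. Over the 13714 tested probes the median was -0.04 and 54.3% had a lower mean. A difference of -0.3 or beyond was found in 135 members (90.0%), against 15.4% of the other candidates and 25.1% of the tested probes. limma, fitted to all 27 arrays and all tested probes, called 9 of the 148 tested members lower at a Benjamini-Hochberg adjusted p under 0.05 and 0 higher, where 0.467% of tested probes were called lower. Over all tested probes 64 calls were lower and 45 higher, against 41 and 49 after quantile normalization and 50 and 62 on the authors' deposited values. An unadjusted p under 0.05 with a lower mean was found for 97 of the 148, against a background of 7.96%. In 38 of the 148, every DHT array of 9 h was below every DHT array of 6 h, which held for 1.93% of tested probes. The other 2 members, UF_Ppr_AF_114873 and UF_Ppr_AF_108518, carried an outlier flag on an array and were not tested.

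The number of calls at 9 h moved with the model and with most single arrays left out, while the median difference moved little. The 9 calls had limma adjusted p-values between 0.0235 and 0.0485, not far under the threshold of 0.05. limma fitted to the 10 DHT arrays compared, in place of all 27, called 0 members. In that fit 88 of 148 had an unadjusted p under 0.05 and were lower, against 6.29% of tested probes. Leaving out 1 array gave 3, 20, 0, 0 and 1 calls without DHT 9 h replicates 1 to 5, and 2, 0, 0, 0 and 7 without DHT 6 h replicates 1 to 5. Between 80 and 102 members were lower at an unadjusted p under 0.05 in these fits, against 5.92% to 10.4% of tested probes. With slide as a fixed block, 2 members were called, and 0 of the 9 were among them. UF_Ppr_AF_104430, the first member by margin, was 1 of these 2, with a difference of -1.49 (limma adjusted p = 0.00254). With this block, 84 of 148 had an unadjusted p under 0.05 and were lower, against 6.26% of tested probes. Slides 2 and 3 each held DHT arrays of both times. On slide 2, with 1 array of 9 h and 4 of 6 h, the median difference was -0.40 and 136 of 150 members were lower at 9 h. On slide 3, with 2 arrays of 9 h and 1 of 6 h, it was -0.55 and 125 were lower. All tested probes had median differences of 0.05 and -0.03 on these 2 slides, and 46.4% and 52.1% of them were lower at 9 h.

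The next test compared 12 h with 6 h in the DHT arrays. The mean was lower at 12 h for 148 of 150 members, with a median difference of -0.45 (quartiles -0.61 and -0.34, range -2.17 to 0.18), a level 0.734 times that of 6 h. The tested probes as a whole had a median of 0.09, and 42.3% of them a lower mean. A difference of -0.3 or beyond was found in 120 members (80.0%), against 14.3% of the other candidates and 18.3% of the tested probes. limma called 30 of 148 members lower and 0 higher, where 1.12% of tested probes were called lower. With a lower mean and an unadjusted p under 0.05 there were 76 members, against 5.46% of tested probes, and in 46 every array of 12 h was below every array of 6 h, against 2.38%. Fewer calls were made with slide as a random block (15), on the authors' deposited values (19), on the 9 arrays compared alone (14), and without DHT 12 h replicate 1 (16) or 2 (17). Quantile normalization gave all tested probes a median of -0.02 in place of 0.09 and made 23 member calls, with a member median 0.44 below that of all tested probes, where the scaling used here put it 0.54 below. The calls over all tested probes were 153 lower and 1325 higher under this scaling and 197 lower and 809 higher under quantile normalization, and 249 lower and 911 higher after normexp background correction. Of the 30 members, 17 were also called after quantile normalization, 15 on the deposited values, 15 with the random block and 12 on the arrays compared alone. The comparisons of 9 h and of 12 h share the 5 DHT arrays of 6 h and are not independent of each other.

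Between 9 and 12 h the DHT arrays stayed close to each other for most members, as the rule had required of the controls. The median difference of 12 h minus 9 h was 0.05 (quartiles -0.13 and 0.21), and 116 members (77.3%) lay within 0.3 either way, against 76.6% of the other candidates and 41.8% of the tested probes. The share of members is therefore near that of the other candidates. Of the rest, 24 members were higher and 10 lower at 12 h by over 0.3. limma called 2 of 148 members, 1 in each direction, where 16.1% of tested probes were called either way, but 1.42% of the other candidates, which the same plateau limit had kept. Those calls over all tested probes were 432 lower and 1782 higher, against 626 and 1188 after quantile normalization, 730 and 1293 after normexp, and 600 and 1216 on the deposited values.

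The 2 members called between 9 and 12 h parted from the plateau in opposite directions. UF_Ppr_AM_119600 had levels of -1.96, -2.46, -2.38, -2.02 and -2.83 at 6 h, then -2.37, -2.28, -4.08, -3.23 and -3.24 at 9 h, then -4.26, -4.67, -4.44 and -4.63 at 12 h in DHT arrays. Its control levels were -2.45, -2.77, -2.09 and -2.11 at 6 h, then -2.98, -2.85, -2.40, -3.39 and -3.03 at 9 h, then -3.09, -3.68, -2.74 and -3.25 at 12 h. All 4 DHT arrays of 12 h were below every other array of the series for this probe. It fell in DHT arrays by 1.46 on the log2 scale at 12 h relative to 9 h (SE 0.29, limma adjusted p = 0.000928), and by 2.17 relative to 6 h (SE 0.29, limma adjusted p = 1.36e-05), a 4.49-fold lower level. Both calls passed under each of the 16 alternatives that could be fitted for them. UF_Ppr_AF_104430, the first member by margin, had levels of -2.45, -2.58, -3.03, -2.37 and -1.76 at 6 h, then -3.41, -4.16, -2.98, -3.33 and -4.13 at 9 h, then -2.54, -2.51, -2.50 and -2.68 at 12 h in DHT arrays. In controls they were -2.11, -2.63, -2.28 and -2.42 at 6 h, then -3.31, -4.09, -4.24, -3.23 and -4.24 at 9 h, then -3.46, -5.03, -3.02 and -2.83 at 12 h. The DHT arrays of 12 h lay back within the range of 6 h, above all 5 DHT arrays of 9 h, while all 4 control arrays of 12 h were below every control array of 6 h. In DHT arrays it rose by 1.04 (SE 0.35, limma adjusted p = 0.0448) at 12 h relative to 9 h, a call that 4 of 16 alternatives kept. Its difference between 12 and 6 h was -0.12 (SE 0.35, limma adjusted p = 0.907) and did not pass. This difference was -0.59 after normexp, -0.37 after quantile normalization, -0.38 on the deposited values and -0.31 with slide as a random block. None of these passed, and how far the probe returned to its level of 6 h thus moved with the processing.

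In DHT arrays, 6 members were called lower both at 9 h and at 12 h, and they were picked out after their values were seen. The share of all tested probes called lower at both times was not counted. It can be no more than the 0.467% called lower at 9 h. UF_Ppr_AF_101342 had the largest of these differences at 9 h. Its DHT levels were 3.20, 3.40, 3.35, 3.60 and 2.79 at 6 h, then 2.48, 2.66, 1.96, 2.17 and 2.48 at 9 h, then 2.44, 2.30, 2.64 and 2.65 at 12 h. Its control levels were 3.14, 3.34, 3.20 and 3.33 at 6 h, then 2.30, 3.05, 2.42, 2.81 and 2.24 at 9 h, then 2.57, 2.09, 2.64 and 2.87 at 12 h. No DHT array of 9 or 12 h reached the lowest DHT array of 6 h, replicate 5, and the control arrays of 9 and 12 h were also all below those of 6 h. It fell at 9 h, with a difference of -0.92 (SE 0.18, limma adjusted p = 0.0235), and at 12 h, with one of -0.76 (SE 0.19, limma adjusted p = 0.0101), levels 1.89-fold and 1.7-fold lower than at 6 h. The call at 12 h passed under all 16 alternatives, and that at 9 h under 11 of 18.

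UF_Ppr_AF_104936 showed a wider gap at 12 h. Levels in DHT arrays were 1.48, 1.17, 1.099, 1.15 and 1.13 at 6 h, then 0.36, 0.95, 0.21, 0.40 and 0.53 at 9 h, then 0.66, 0.40, -0.24 and 0.37 at 12 h. In control arrays they were 1.24, 1.26, 1.40 and 1.44 at 6 h, then 0.29, 0.99, 0.67, 0.61 and 0.34 at 9 h, then 0.99, 0.45, 0.63 and 0.73 at 12 h. The 6 h arrays of both arms formed a group of their own, with every array of 9 and 12 h below all of them. The differences in DHT arrays were -0.71 (SE 0.17, limma adjusted p = 0.0485) at 9 h and -0.91 (SE 0.18, limma adjusted p = 0.00121) at 12 h. At 12 h the call held in all 16 alternatives, at 9 h in 2 of 18.

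UF_Ppr_AF_104353 had DHT levels of 1.82, 1.88, 1.91, 2.20 and 1.36 at 6 h, then 1.01, 1.39, 1.31, 0.97 and 1.102 at 9 h, then 1.17, 1.20, 1.45 and 1.23 at 12 h. In controls the levels were 2.10, 2.03, 1.65 and 1.78 at 6 h, then 0.92, 1.18, 1.51, 1.08 and 0.97 at 9 h, then 1.08, 1.65, 1.20 and 1.36 at 12 h. DHT 6 h replicate 5, at 1.36, lay below 1 array of 9 h and 1 of 12 h, so that the groups overlapped through this array, and the other 4 arrays of 6 h were above all later ones. It fell at both times, with differences of -0.68 (SE 0.16, limma adjusted p = 0.0406) at 9 h and -0.57 (SE 0.17, limma adjusted p = 0.0258) at 12 h. The call at 9 h was kept in 7 of 18 alternatives and that at 12 h in 6 of 16.

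UF_Ppr_AF_107660 was the brightest of the 6. DHT arrays read 3.85, 3.95, 3.91, 3.94 and 3.49 at 6 h, then 3.39, 3.34, 3.17, 3.43 and 3.15 at 9 h, then 3.22, 3.31, 3.25 and 3.56 at 12 h, and control arrays read 3.78, 3.84, 3.87 and 3.89 at 6 h, then 2.97, 3.18, 3.30, 3.20 and 3.03 at 9 h, then 3.39, 3.21, 3.41 and 3.40 at 12 h. Again DHT 6 h replicate 5 was the lowest of its group and overlapped with 1 array of 12 h, but with none of 9 h. The differences were -0.53 (SE 0.11, limma adjusted p = 0.0293) at 9 h and -0.49 (SE 0.12, limma adjusted p = 0.00721) at 12 h. The call at 12 h was kept in 13 of 16 alternatives, with all 9 fits that left out 1 array among them, and was lost after normexp, on the deposited values and on the compared arrays alone. The call at 9 h was kept in 9 of 18.

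The last 2 of the 6 had small margins and narrow spreads. UF_Ppr_AF_100513 had levels of 2.98, 3.27, 3.38, 3.13 and 3.09 at 6 h, then 2.48, 2.85, 2.45, 2.64 and 2.38 at 9 h, then 2.63, 2.75, 2.70 and 2.66 at 12 h in DHT arrays and 3.12, 3.37, 3.09 and 3.35 at 6 h, then 2.54, 2.82, 2.55, 2.89 and 2.23 at 9 h, then 2.71, 2.46, 2.88 and 2.84 at 12 h in controls. UF_Ppr_AF_100854 had levels of 3.29, 2.91, 2.94, 2.90 and 2.97 at 6 h, then 2.62, 2.63, 2.18, 2.61 and 2.31 at 9 h, then 2.32, 2.41, 2.74 and 2.72 at 12 h in DHT arrays and 3.13, 3.09, 3.20 and 3.02 at 6 h, then 2.49, 2.67, 2.31, 2.50 and 2.20 at 9 h, then 2.50, 2.60, 2.65 and 2.75 at 12 h in controls. In both probes every array of 9 and 12 h, of either arm, was below every array of 6 h. For UF_Ppr_AF_100513 the differences in DHT arrays were -0.61 (SE 0.13, limma adjusted p = 0.0313) at 9 h and -0.48 (SE 0.14, limma adjusted p = 0.0278) at 12 h. For UF_Ppr_AF_100854 they were -0.53 (SE 0.13, limma adjusted p = 0.0485) at 9 h and -0.45 (SE 0.14, limma adjusted p = 0.0304) at 12 h. With 1 array left out, the call at 9 h was kept in 2 of 10 fits for the first of these probes and in 1 of 10 for the other. Their calls at 12 h were kept in 6 and 7 of 16 alternatives.

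The other 3 members called at 9 h differed by -0.53 to -0.68. UF_Ppr_AF_105250 had DHT levels of 2.33, 2.54, 1.81, 2.19 and 2.14 at 9 h, against 2.93, 2.73, 2.89, 3.14 and 2.72 at 6 h, without overlap. Its difference was -0.68 (SE 0.15, limma adjusted p = 0.0364) at 9 h and -0.43 (SE 0.16, limma adjusted p = 0.0995) at 12 h, where it did not pass. UF_Ppr_AF_101262 differed by -0.53 (SE 0.13, limma adjusted p = 0.0451) at 9 h and by -0.36 (SE 0.13, limma adjusted p = 0.087) at 12 h. Of 18 alternatives, 5 kept the call of the first at 9 h and 4 that of the other. UF_Ppr_AF_101371 is described with the brightest members.

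At 12 h, 9 members were called lower in DHT arrays under each of the 16 alternatives that could be fitted, and they too were picked out after their values were seen. How many of all tested probes kept their call in this way was not counted. Their share can be no more than the 1.12% called lower at 12 h. They include UF_Ppr_AF_101342, UF_Ppr_AF_104936 and UF_Ppr_AM_119600 above. UF_Ppr_AF_115852 had DHT levels of 2.88, 2.56, 2.88, 3.09 and 2.70 at 6 h, then 2.37, 2.57, 2.15, 2.24 and 2.19 at 9 h, then 2.12, 1.99969, 2.10 and 2.09 at 12 h, with controls at 2.92, 2.86, 2.96 and 2.81 at 6 h, then 2.56, 2.35, 2.38, 2.43 and 1.87 at 9 h, then 2.06, 2.14, 2.08 and 2.30 at 12 h. Its 4 DHT arrays of 12 h lay close together, below all others of that arm. The difference between 12 and 6 h was -0.75 (SE 0.14, limma adjusted p = 0.00047), and at 9 h it was -0.52 (SE 0.13, limma adjusted p = 0.0573). UF_Ppr_AF_118814 had DHT levels of 0.66, 0.64, 0.67, 0.67 and 0.61 at 6 h, then 0.35, 0.39, 0.01, -0.12 and -0.01 at 9 h, then 0.26, 0.10, -0.01 and 0.09 at 12 h, and control levels of 0.79, 0.90, 0.61 and 0.90 at 6 h, then 0.34, 0.40, 0.07, 0.42 and -0.26 at 9 h, then 0.29, 0.26, 0.21 and 0.27 at 12 h. Its 5 DHT arrays of 6 h spanned 0.61 to 0.67, and no later array of either arm reached them. It fell by 0.54 at 12 h relative to 6 h (SE 0.14, limma adjusted p = 0.0107). The other 4 were UF_Ppr_AF_109216, at -0.80 (SE 0.17, limma adjusted p = 0.00264), UF_Ppr_AF_103932, at -0.75 (SE 0.19, limma adjusted p = 0.00968), UF_Ppr_AF_106549, at -0.64 (SE 0.17, limma adjusted p = 0.0111), and UF_Ppr_AF_116318, at -0.74 (SE 0.19, limma adjusted p = 0.0105), and in each every DHT array of 12 h was below every one of 6 h.

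In 7 members every array of 9 and 12 h, DHT and control alike, was below every array of 6 h of both arms, which held for 0.0802% of tested probes. Beside UF_Ppr_AF_104936, UF_Ppr_AF_100513, UF_Ppr_AF_100854 and UF_Ppr_AF_118814 these were UF_Ppr_AF_118124, UF_Ppr_AF_110189 and UF_Ppr_AF_102134. UF_Ppr_AF_118124 had DHT levels of 2.04, 1.77, 2.24, 1.78 and 1.77 at 6 h, then 1.64, 1.40, 0.78, 1.57 and 1.73 at 9 h, then 1.17, 0.79, 1.70 and 1.38 at 12 h. UF_Ppr_AF_110189 had DHT levels of 2.97, 2.98, 3.20, 3.17 and 2.87 at 6 h, then 2.68, 2.83, 2.62, 2.36 and 2.43 at 9 h, then 2.20, 2.59, 2.69 and 2.57 at 12 h. Their differences at 12 h, -0.66 (SE 0.20, limma adjusted p = 0.0294) and -0.52 (SE 0.15, limma adjusted p = 0.0284), passed, and those at 9 h, -0.49 and -0.45, did not. Each of these calls at 12 h was kept in 7 of 16 alternatives. The control side of this separation was in part set by the choice of members.

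The 8 members with the largest margin in controls differed among themselves in the DHT arrays. Beside UF_Ppr_AF_104430, UF_Ppr_AF_102485 had DHT levels of -1.005, -2.03, -0.76, -0.75 and -1.72 at 6 h, then -2.54, -1.93, -2.32, -2.11 and -1.75 at 9 h, then -2.71, -2.04, -1.25 and -1.65 at 12 h. Its differences were -0.88 (SE 0.30, limma adjusted p = 0.152) at 9 h and -0.66 (SE 0.32, limma adjusted p = 0.221) at 12 h, and the groups overlapped at both. UF_Ppr_AF_116460 ranged widely, at -2.73, -3.42, -3.88, -4.20 and -4.35 at 6 h, then -3.34, -3.61, -5.33, -4.58 and -3.86 at 9 h, then -3.82, -4.04, -4.73 and -5.19 at 12 h in DHT arrays, and differed by -0.43 and -0.73. UF_Ppr_AF_118023, among the dimmest, had DHT levels of -4.71, -4.82, -4.63, -4.36 and -5.57 at 6 h, then -5.76, -5.31, -6.33, -5.02 and -5.08 at 9 h, then -5.15, -4.53, -4.69 and -4.77 at 12 h. At 12 h its DHT mean was -4.78 ± 0.26 (SD, n = 4), against -4.82 ± 0.45 (SD, n = 5) at 6 h, so these means showed no lower level. The difference of 0.04 changed sign with the processing. It was -0.35 after quantile normalization, -0.33 on the deposited values, -0.16 after normexp and -0.0355 with slide as a random block, and none of these passed. The 12 h control array of replicate 2 stood at -6.72, far below the other 3.

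UF_Ppr_AF_115307 was the 1 of the 8 called lower at 12 h. It had DHT levels of 2.62, 2.46, 2.22, 3.11 and 2.47 at 6 h, then 1.92, 1.65, 1.91, 2.09 and 2.24 at 9 h, then 1.76, 2.20, 2.01 and 1.91 at 12 h, and control levels of 3.08, 2.49, 2.71 and 2.43 at 6 h, then 1.81, 1.62, 1.53, 2.25 and 1.87 at 9 h, then 1.71, 1.48, 1.84 and 1.95 at 12 h. At 12 h every DHT array was below those of 6 h, with a difference of -0.61 (SE 0.19, limma adjusted p = 0.035). At 9 h 1 array overlapped, and the difference was -0.62 (SE 0.17, limma adjusted p = 0.0893). The call at 12 h held in 6 of 16 alternatives. UF_Ppr_AF_112925 had DHT levels of 3.42, 2.99, 3.17, 3.86 and 3.42 at 6 h, then 2.42, 2.57, 1.67, 2.37 and 2.48 at 9 h, then 2.04, 2.64, 3.32 and 1.57 at 12 h, so that all arrays of 9 h were below those of 6 h, while 1 array of 12 h was not. It differed by -1.07 (SE 0.37, limma adjusted p = 0.153) at 9 h and by -0.98 (SE 0.39, limma adjusted p = 0.121) at 12 h. UF_Ppr_AF_117514 had DHT levels of -2.74, -2.64, -2.54, -3.05 and -3.26 at 6 h, then -3.27, -2.79, -4.01, -4.02 and -4.61 at 9 h, then -3.48, -3.98, -2.31 and -2.64 at 12 h, overlapping at both times, with differences of -0.89 and -0.26. UF_Ppr_AF_112817 is the one member whose DHT mean was not lower at 9 h, and it is described with the smallest differences. Of these 8 members, limma called 1 lower at 12 h, against 1.12% of tested probes, and 0 at 9 h, against 0.467%. At 9 h 5 of them were lower at an unadjusted p under 0.05, against 7.96% of tested probes. With slide as a fixed block, UF_Ppr_AF_104430 was called lower at 9 h.

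Ranked by margin in controls, the first 50 members had a median DHT difference of -0.61 at 9 h and -0.56 at 12 h, the middle 50 of -0.53 and -0.44, and the last 50 of -0.47 and -0.39. The order of the 3 sets is the same at both times, which share the 6 h arrays.

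The 3 brightest members were UF_Ppr_AF_115253, UF_Ppr_AF_102134 and UF_Ppr_AF_101371. UF_Ppr_AF_115253, at a mean level of 5.51, had DHT levels of 5.83, 6.25, 5.70, 5.68 and 5.83 at 6 h, then 5.56, 5.53, 5.44, 5.36 and 5.38 at 9 h, then 5.76, 5.36, 5.23 and 5.10 at 12 h, and control levels of 5.49, 5.73, 6.04 and 6.01 at 6 h, then 5.49, 5.00, 5.46, 5.48 and 5.23 at 9 h, then 5.53, 5.04, 5.17 and 5.07 at 12 h. DHT 6 h replicate 2 was high, all DHT arrays of 9 h were below those of 6 h, and 1 of 12 h was not. The differences, -0.40 (SE 0.15, limma adjusted p = 0.201) at 9 h and -0.49 (SE 0.16, limma adjusted p = 0.0537) at 12 h, did not pass. At 12 h some alternatives passed, with a limma adjusted p of 0.00222 after normexp and 0.0195 after quantile normalization. It was 0.126 on the deposited values and 0.0984 with slide as a random block. UF_Ppr_AF_102134 had DHT levels of 5.42, 5.88, 5.35, 5.26 and 5.46 at 6 h, then 4.88, 5.14, 4.96, 4.87 and 5.08 at 9 h, then 5.00, 4.93, 4.98 and 5.00 at 12 h. It fell by 0.50 at 12 h (SE 0.14, limma adjusted p = 0.0208), a call kept in 10 of 16 alternatives, and differed by -0.48 (SE 0.13, limma adjusted p = 0.0762) at 9 h. UF_Ppr_AF_101371 had DHT levels of 5.19, 5.28, 5.32, 5.47 and 5.23 at 6 h, then 4.74, 5.01, 4.63, 4.74 and 4.53 at 9 h, then 4.80, 5.02, 4.89 and 4.97 at 12 h, with no overlap of 6 h with either later time, and fell at 9 h with a difference of -0.57 (SE 0.14, limma adjusted p = 0.0485), a call kept in 2 of 18 alternatives. At 12 h its difference was -0.38 (SE 0.14, limma adjusted p = 0.103).

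The 3 dimmest members were UF_Ppr_AF_113589, UF_Ppr_AF_118023 and UF_Ppr_AF_101181. UF_Ppr_AF_113589 had DHT levels of -4.50, -5.19, -4.38, -4.70 and -4.69 at 6 h, then -6.75, -5.09, -5.63, -6.15 and -5.40 at 9 h, then -6.07, -5.69, -4.97 and -5.91 at 12 h, and 1 array of 6 h, at -5.19, lay below 1 of 9 h and 1 of 12 h. Its differences of -1.11 (SE 0.30, limma adjusted p = 0.074) at 9 h and -0.97 (SE 0.32, limma adjusted p = 0.0521) at 12 h were large but did not pass. Some alternatives did pass at 12 h. There the limma adjusted p was 0.0134 after quantile normalization, 0.0151 after normexp and 0.0116 on the deposited values, but 0.126 with slide as a random block. UF_Ppr_AF_101181 had DHT levels of -3.89, -2.99, -2.95, -4.85 and -3.83 at 6 h, then -3.97, -4.76, -4.90, -4.62 and -4.12 at 9 h, then -5.07, -4.47, -4.97 and -4.78 at 12 h. It was called lower at 12 h, with a difference of -1.12 (SE 0.36, limma adjusted p = 0.0488), which 5 of 16 alternatives kept, although DHT 6 h replicate 4 lay within the range of 12 h.

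Across levels, the median DHT difference of the members was negative in every bin. In the 40 members above level 2 it was -0.49 at 9 h and -0.46 at 12 h, in the 52 between 0 and 2 it was -0.58 and -0.43, and in the 34 between -2 and 0 it was -0.50 and -0.51. The 19 members between -4 and -2 had medians of -0.65 and -0.37, and the 5 below -4 had -0.68 and -0.73. All tested probes had medians between -0.08 and -0.01 at 9 h in these bins. At 12 h theirs ran from -0.09 above level 2 to 0.33 below -4, so the distance between members and tested probes was widest below -4. That bin holds only 5 members. Its 5382 tested probes needed detection on only 4 arrays, while the members and the 442 candidates there were detected on all. Of the 9 calls at 9 h, 7 were in members above level 2 and 2 in those between 0 and 2, where 24 of 1355 and 25 of 2292 tested probes were called lower, against 9, 0 and 6 in the 3 dimmer bins. Of the 30 at 12 h, 14 were above level 2, 8 between 0 and 2, 5 between -2 and 0, 2 between -4 and -2 and 1 below -4. Over all tested probes the calls of these bins were 53 of 1355, 54 of 2292, 19 of 2043, 13 of 2642 and 14 of 5382, so that calls were also more frequent among bright probes in general.

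In 3 members the DHT means of 9 and 6 h were nearly equal. UF_Ppr_AF_112817, the sixth by margin, had DHT levels of -0.74, -2.32, -0.66, -0.87 and -1.42 at 6 h, then -1.42, -1.54, -1.16, -0.87 and -0.84 at 9 h, then -1.32, -1.85, -1.57 and -1.68 at 12 h, and the 5 arrays of 9 h lay within the range of 6 h, which DHT 6 h replicate 2 extended downwards. Its difference was 0.04 (SE 0.34, limma adjusted p = 0.975) at 9 h and -0.40 (SE 0.36, limma adjusted p = 0.587) at 12 h. UF_Ppr_AF_117721 had DHT levels of -0.33, -0.64, 0.42, -0.15 and 0.15 at 6 h, then -0.11, -0.87, -0.40, 0.02 and 0.80 at 9 h, then 0.50, 0.13, 0.09 and -0.43 at 12 h, overlapping at all times, with differences of -0.0024 (SE 0.37, limma adjusted p = 0.998) at 9 h and 0.18 (SE 0.39, limma adjusted p = 0.856) at 12 h. UF_Ppr_AF_114303 differed by -0.02 (SE 0.27, limma adjusted p = 0.989) at 9 h, with -3.34, -4.27, -4.18, -3.27 and -4.69 in DHT arrays of 9 h against -3.995, -3.97, -3.98, -3.44 and -4.28 in those of 6 h, and by -0.27 at 12 h. The sign of these 3 differences at 9 h changed with the arrays left out. At the other end, UF_Ppr_AF_111412 had the second largest difference at 9 h, with DHT levels of 0.88, 0.58, 0.19, 0.93 and 0.57 at 6 h, then 0.28, -0.75, -0.44, -1.49998 and -0.02 at 9 h, then 0.30, 0.04, 0.86 and -0.46 at 12 h, and with DHT 9 h replicate 4 the lowest. Its differences were -1.11 (SE 0.29, limma adjusted p = 0.0654) at 9 h and -0.45 (SE 0.31, limma adjusted p = 0.433) at 12 h, and neither passed.

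The 2 probes looked at on each side of the limit are too few to show whether the DHT differences changed there. The last 2 members, UF_Ppr_AF_103193 and UF_Ppr_AF_116503, differed by -0.87 and -0.46 at 9 h and by -0.62 and -0.50 at 12 h. The first 2 probes outside, UF_Ppr_AF_104899 and UF_Ppr_AF_106489, differed by -0.19 and -0.46 at 9 h and by -0.93 and -0.51 at 12 h. None of the 4 was called at either time.

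The series was designed to compare DHT with control at each time, and for the members these values are a description, since the control arrays chose them. The median of DHT minus control was -0.11 at 6 h, 0.00 at 9 h and 0.02 at 12 h. At 6 h, 123 of 150 members had a lower mean with DHT, against 60.1% of the other candidates and 53.6% of tested probes, and the rule had picked probes that were high in the 6 h controls. At 9 h 75 and at 12 h 67 of 150 were lower, against 53.0% and 52.9% of tested probes. limma called 0 of 148 members and 0% of tested probes at each time. At an unadjusted p under 0.05 there were 0, 1 and 4 members at 6, 9 and 12 h, against 0.43%, 2.63% and 2.78% of tested probes. The test of whether the difference between 9 and 6 h was unlike in DHT and control arrays called 0 probes by limma, with 0 members and 0.503% of tested probes at an unadjusted p under 0.05. That for 12 and 6 h called 0, with 2 members and 0.605% of tested probes at an unadjusted p under 0.05.

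The extremes among the members were as follows. At 6 h, UF_Ppr_AF_115872 was higher with DHT by 0.32 (SE 0.30), with levels of -0.72, -1.24, -1.20, -1.10 and -0.57 in DHT and -1.13, -1.04, -1.21 and -1.77 in control arrays, which overlapped. UF_Ppr_AF_116460 differed by -0.58 (SE 0.40) at that time, with -2.73, -3.42, -3.88, -4.20 and -4.35 in DHT and -3.78, -3.34, -2.49 and -2.93 in control arrays. At 9 h, UF_Ppr_AF_108899 had -4.81, -3.78, -3.50, -3.34 and -3.84 in DHT arrays and -5.11, -5.86, -4.02, -3.84 and -4.13 in controls, a difference of 0.74 (SE 0.32). Of the control arrays 2 were lower than all DHT arrays, and the rest lay among them. UF_Ppr_AF_113589 differed by -0.59 (SE 0.30) at 9 h. At 12 h, UF_Ppr_AF_104430 was higher with DHT by 1.03 (SE 0.37), and all 4 DHT arrays, between -2.68 and -2.50, were above every control array. UF_Ppr_AM_119600 was lower by -1.31 (SE 0.31), again without overlap, with an unadjusted p of 0.00029. All of these 6 had a limma adjusted p of 1.00.

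The same selection was then read on the DHT arrays in place of the controls. It left 4348 probes within the limits, and 116 of the 150 members (77.3%) were among them. For the members only the limit on 12 h minus 9 h in DHT arrays was new here. That limit was met by 76.6% of the other candidates, so the share of members is near theirs. Of the 150 probes with the largest margin there, 50 (33.3%) were members. The first 50 members by control margin gave 21 of these and the last 50 gave 12, and 108 members were among the first 1000 probes. The share of the other candidates in these lists was not counted. The choice also moved with the processing of the control arrays: 76 of the 150 were chosen again after quantile normalization, 79 after normexp background correction, 74 from the authors' deposited values and between 105 and 133 without 1 control array.

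Properties that the rule had not used directly were set beside those of all tested probes. Of the members, 136 (90.7%) were named in the files as contigs, against 80.1% of tested probes, and 13 (8.67%) carried a sequence number, against 19.7%. The candidates were brighter than the tested probes, with a median level of 0.33 against -2.93. Their share of contigs was not counted, so whether the members differ in name from other candidates was not tested. The 136 contigs came from 136 different numbered clusters. Another 54 tested probes, not members, carried the name of 1 of 36 of these clusters. Their median difference in DHT arrays was -0.14 at 9 h, with 36 of 54 lower, 1 called lower and 0 called higher, and -0.01 at 12 h, with 27 lower, 2 called lower and 4 called higher, where all tested probes had medians of -0.04 and 0.09. The 54 were unevenly spread, with more in the cluster of UF_Ppr_AF_100010 than in any other. The 1 called lower at 9 h was UF_Ppr_AF_113842, of the cluster of UF_Ppr_AF_118649. It differed by -0.57 (SE 0.12, limma adjusted p = 0.0293) at 9 h and by -0.03 at 12 h. UF_Ppr_AF_106746, of the cluster of UF_Ppr_AM_119600, differed by -0.28 and -0.44 at 9 and 12 h, where that member differed by -0.71 and -2.17. In the cluster of UF_Ppr_AF_104430, which differed by -1.16 and -0.12, UF_Ppr_AF_101479 differed by 1.18 and -0.42. UF_Ppr_AF_114779, of the same cluster, differed by -0.16 and 0.03. UF_Ppr_AF_112246, of the cluster of UF_Ppr_AF_107660, differed by 0.25 and 0.32, and UF_Ppr_AM_120606, of that of UF_Ppr_AF_103932, by 0.02 and 0.09. In the cluster of UF_Ppr_AF_106549, UF_Ppr_AF_111093 differed by -0.45 and 0.36 and UF_Ppr_AM_120699 by -0.40 and 0.01. In that of UF_Ppr_AF_102134, UF_Ppr_AF_103648 differed by -0.42 and -0.43, UF_Ppr_AF_106826 by -0.24 and 0.35 and UF_Ppr_AF_115317 by 0.75 (SE 1.29) and 0.46 (SE 1.37). UF_Ppr_AM_119759, of the cluster of UF_Ppr_AF_100513, differed by 0.03 and -0.22. UF_Ppr_AF_114779, UF_Ppr_AM_120606, UF_Ppr_AF_111093 and UF_Ppr_AM_119759 were dim, at mean levels of -6.38, -6.03, -6.45 and -7.04, while UF_Ppr_AF_112246 lay at -0.33. On the array surface 42, 43, 28 and 37 members lay at the top left, top right, bottom left and bottom right (28.0%, 28.7%, 18.7% and 24.7%), against 25.1%, 25.1%, 24.9% and 24.9% of tested probes. Within groups the members varied together only weakly, with a mean pairwise r of 0.09 over the 27 arrays after removal of group means, against 0.03 among the other candidates, values that share arrays and depth and carry no test.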

How the data were processed

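RNA of 27 ovary explant samples was measured on Agilent 1-colour arrays. The authors' scanner output holds, per the file headers, a processed signal per spot, which is a linear intensity with background subtracted, besides a median signal and its local background. Other deposited columns are flags for spots that were saturated, outlying or well above background. The authors also deposited log2 values of unstated normalization. The lowest correlation of one of these columns with its own array was 0.9979 across non-control probes, with column medians of 8.21 to 8.30.

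Here, log2 processed signal was set relative to the 75th percentile of each array's non-control probes. Of 15208 such probes, 169 with an outlier flag on any array and 1333 well above background on fewer than 4 arrays were left out (the sets overlap), and 13714 were tested. A model with 1 mean per group was fitted to the 27 arrays with limma 3.58.1 in R 4.3.3 (data.table version 1.17.8), and p-values of each contrast were adjusted by Benjamini-Hochberg over all tested probes, with a threshold of 0.05. The code was tested on simulated data. Selection and counts used Python 3.11.15, pandas 2.3.3 and numpy 2.4.6.

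Groups were agent and time per the labels, and their 4 or 5 arrays set the precision. The members and all lists were chosen with earlier results of these data known. Probes named by rule are the 8 members with the largest margin, the 3 brightest and 3 dimmest, the 3 with the largest and the 3 with the smallest difference at 9 h in DHT arrays, the last 2 inside and first 2 outside the limit, and the extremes of DHT minus control at each time. The 6 members called at both times, the 9 called under every alternative and the 7 separated in both arms were chosen after their values were seen. Planned gene lists and cell type markers were not run, since the files name no genes. Alternatives were normexp correction of the median signal with offset 50 (the planned mean signal being no column of the files) and quantile normalization, quantile normalization alone, the deposited log2 values, dim probes kept, probes restricted to those detected on all arrays, a block for slide (fixed, then random), a fit to the compared arrays alone, and each array left out in turn. The median difference of the members under these settings and the selection read on DHT arrays were added after seeing the data.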

Additional observations from a re-analysis of the deposited data

Results flagged for a closer look

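In each group of 4 or 5 arrays, the gap between the most extreme array and its nearest neighbour was set against the group's range. Over 132 groups examined, 6 had an array that stood apart, where chance gives about 1 in 20. The share flagged was thus no higher than chance gives. The median deviation of the members in the 12 h DHT arrays was lowest at -0.22, in replicate 1, with the next array at -0.13. UF_Ppr_AF_118023 stood at -6.72 in 1 control array of 12 h (replicate 2), with the next at -5.13. UF_Ppr_AF_112925 was at 1.67 in DHT 9 h replicate 3, with the next at 2.37. UF_Ppr_AF_115253 was high at 6.25 in DHT 6 h replicate 2, with the next at 5.83. UF_Ppr_AF_115872 was low at -2.49 in DHT 9 h replicate 2, with the next at -1.73, and at -2.81 in DHT 12 h replicate 1, with the next at -1.69.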

How the results depend on the processing

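Members called lower at 9 h relative to 6 h in DHT arrays numbered 9, and 4 after normexp, 3 after quantile normalization, 3 on the deposited values, 5 without a filter on dim probes, 20 among probes well above background on all arrays, 2 with slide as a fixed block (0 of them among the 9), 4 with slide as a random block, 0 on the arrays compared alone and between 0 and 20 without 1 array. At 12 h relative to 6 h the 30 calls became 19 on the deposited log2 values, 15 with a random block for slide, 14 on the arrays compared alone and between 16 and 28 without 1 array. Slide as a fixed block could not be estimated there. At 12 h relative to 9 h the 2 calls became 6 after normexp, 1 with slide as a random block and between 1 and 2 without 1 array. No setting called a member for DHT minus control. The chosen list kept 76 members after quantile normalization, 79 after normexp and 74 on the deposited values, and between 105 and 133 without 1 control array. The median difference of the members stayed within the spread between arrays under each of 32 alternatives, counted over 9 and 12 h together. Among these, the settings on dim probes left the values of the tested members unchanged and so could hardly move it.

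Of the differences of named members in DHT arrays, 617 values kept direction and side of the threshold, 50 no longer passed, 19 newly passed and 28 changed sign. The cause of the sign changes was not tested. At 9 h, UF_Ppr_AF_112817 was at -0.0137 after normexp and from -0.24 to 0.17 without 1 array, UF_Ppr_AF_117721 at 0.0201 and from -0.23 to 0.19, and UF_Ppr_AF_114303 at 0.0273 and from -0.19 to 0.17. UF_Ppr_AF_108899 was at 0.17 with slide as a fixed block, 0.0378 as a random block and from -0.15 to 0.21 without 1 array. At 12 h, UF_Ppr_AF_118023 was at -0.16 after normexp, -0.35 after quantile normalization, -0.33 on the deposited log2 values, -0.0355 with a random block for slide and from -0.15 to 0.16 without 1 array. UF_Ppr_AF_104430 ran from -0.26 to 0.0533 and UF_Ppr_AF_117514 from -0.52 to 0.0330 without 1 array. After normexp, after quantile normalization, on the deposited values and with a random block, UF_Ppr_AF_104430 was at -0.59, -0.37, -0.38 and -0.31. In the same order UF_Ppr_AF_117514 was at -0.35, -0.56, -0.55 and -0.16. No paired analysis was possible because the labels give the arrays no replicate numbers, and those used here follow the order of deposit. All members were well above background on every array, as the rule required.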
